A study of Mus musculus with 23 samples.

Results

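The VQ-D4 myeloma line was compared with control plasma cells across all genes, using the 4 libraries whose labels name VQ-D4 and the 3 whose labels name Control, 7 of the 23 libraries in the series. Total RNA was sequenced from cells sorted as CD138+B220-, the surface phenotype of plasma cells. VQ-D4 cells carried Vκ*MYC, NrasLSL Q61R/+ and IgG1-Cre and were recovered from transplanted recipient mice, and 1 library was made per site: marrow, liver, spleen and lymph node. The labels describe the sorted cells of both groups by the same cell type wording. Control cells came from bone marrow of mice with IgG1-Cre alone, so both groups carry IgG1-Cre. Not given in the sources used here were the mice's ages, sexes and strains. VQ-D4 is a single donor: by the recipient numbers in the names of the deposited tables, its bone marrow, spleen and lymph node libraries came from 1 recipient and its liver library from another. Hence n = 4 counts libraries and not animals, p-values measure the spread between these libraries, and for the liver library site and recipient cannot be told apart. All controls were bone marrow, so genotype, transplantation and site are also joined in the comparison. The other VQ lines of the same genotype, VQ-D1, VQ-D2 and VQ-D5 with 12 libraries, serve below only to show where VQ-D4 differed from them.

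Multiple myeloma is a cancer of plasma cells, the antibody-secreting end stage of the B cell lineage. In Vκ*MYC mice an immunoglobulin kappa transgene carries MYC and comes under expression through somatic hypermutation in germinal centre B cells, and the LSL cassette keeps the mutant Nras silent until Cre, here from the IgG1 locus, removes it. MYC drives ribosome production, nucleotide synthesis and growth, while active RAS signals through RAF, MEK and ERK and switches on feedback inhibitors of the same cascade. Plasma cells depend on IRF4, BLIMP1 (Prdm1) and XBP1 and have shut down the B cell programme of PAX5.

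The VQ-D4 libraries held 3179578 to 8431792 counts (median 4859207) and the controls 2685579 to 3790134 (median 3023575). The biological coefficient of variation was 22.9% in each group and 18.3% in VQ-D4 without the liver library. Levels are given as CPM, read counts relative to library size after TMM scaling. RNA of several other blood cell types was higher in the controls: all 16 neutrophil genes tested were lower in VQ-D4, and together they reached 3235, 9044 and 3683 CPM in controls 1 to 3 against 75.5 in bone marrow, 14.4 in liver, 7.13 in spleen and 8.30 in lymph node. Of these markers, Fcnb was at 0 reads in all VQ-D4 libraries. Summed erythroid genes were at 159, 995 and 212 CPM in the controls and 7.92 in bone marrow, 11.4 in liver, 27.5 in spleen and 9.90 in lymph node, and 12 of 12 tested were lower. Of the 13 erythroid genes listed, 6 share all their counts in 3 pairs, so their reads enter the sum and the count once per copy. Summed T and NK cell genes were at 92.6 to 127 CPM in the controls and 0.618 to 2.27 in VQ-D4. Early B cell genes summed to 279, 187 and 48.5 CPM in controls 1 to 3 and to 4.47 to 14.3 in VQ-D4, and 3 of 4 tested were lower. Of 10 monocyte and macrophage genes tested 6 were lower and 1 higher, with 1414, 2218 and 1340.2 CPM in controls 1 to 3 and 1092 in bone marrow, 579 in liver, 1089.7 in spleen and 822 in lymph node. Of 5 dendritic cell genes 1 was higher and 1 lower, and of 2 megakaryocyte, mast cell and basophil genes none was called. Control 2 thus had the highest neutrophil and erythroid sums, and control 1 had the highest sum of dissociation and stress genes (15969, 5755 and 6298 CPM in controls 1 to 3, 5148 in bone marrow, 7045 in liver, 14658 in spleen and 7381 in lymph node). The part of these cells and of handling in the results below was not tested, and in bulk RNA fewer cells of a type and less RNA per cell cannot be told apart.

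Promoter sequence is shown for 6 genes of MYC targets and the amino acid genes under ATF4. These are 2 of the groups with the highest shares of higher genes, and both are named for a DNA-binding factor. The genes printed had the largest increases in VQ-D4 among the members of each group with a motif match. That each holds a match was therefore fixed by the choice. The stretch is the 250 bases before the RefSeq start (GRCm38.p6), written 5′ to 3′ on the gene's strand, with matches to the motif in capitals. For Ldha and Slc7a11 the start used lies inside the annotated gene span. The E-box CACGTG, a palindrome bound by MYC with MAX, was searched for the MYC targets, and TGATGNAA, the core of the C/EBP-ATF element bound by ATF4, for the amino acid genes, on both strands. Phb lies at chr11:95666707-95666956 (+), Ldha at chr7:46845554-46845803 (+), Hspd1 at chr1:55088244-55088493 (-), Slc7a11 at chr3:50443614-50443863 (-), Chac1 at chr2:119350992-119351241 (+) and Asns at chr6:7693210-7693459 (-).
Phb: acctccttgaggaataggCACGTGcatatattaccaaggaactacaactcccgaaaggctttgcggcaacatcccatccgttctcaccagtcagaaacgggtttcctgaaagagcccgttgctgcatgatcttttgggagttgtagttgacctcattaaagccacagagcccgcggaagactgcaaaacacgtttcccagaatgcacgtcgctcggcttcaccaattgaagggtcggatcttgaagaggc
Ldha: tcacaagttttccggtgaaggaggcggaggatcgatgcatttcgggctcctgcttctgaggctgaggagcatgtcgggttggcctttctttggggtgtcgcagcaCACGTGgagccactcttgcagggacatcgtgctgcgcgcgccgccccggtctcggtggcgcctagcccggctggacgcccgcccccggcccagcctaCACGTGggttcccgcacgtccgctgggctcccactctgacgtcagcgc
Hspd1: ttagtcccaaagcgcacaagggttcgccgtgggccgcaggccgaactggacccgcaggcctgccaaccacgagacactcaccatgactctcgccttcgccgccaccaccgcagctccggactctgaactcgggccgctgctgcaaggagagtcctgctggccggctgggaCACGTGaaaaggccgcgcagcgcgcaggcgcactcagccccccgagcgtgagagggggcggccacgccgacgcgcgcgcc
Slc7a11: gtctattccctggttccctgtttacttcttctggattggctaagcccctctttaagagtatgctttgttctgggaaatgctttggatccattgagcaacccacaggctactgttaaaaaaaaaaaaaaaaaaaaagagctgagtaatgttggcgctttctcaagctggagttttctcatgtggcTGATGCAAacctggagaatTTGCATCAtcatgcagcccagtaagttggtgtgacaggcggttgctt
Chac1: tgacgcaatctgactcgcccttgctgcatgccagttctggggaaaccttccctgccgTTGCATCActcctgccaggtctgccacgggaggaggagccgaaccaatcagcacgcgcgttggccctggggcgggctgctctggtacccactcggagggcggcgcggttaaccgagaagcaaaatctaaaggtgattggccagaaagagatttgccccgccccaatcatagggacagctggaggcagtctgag
Asns: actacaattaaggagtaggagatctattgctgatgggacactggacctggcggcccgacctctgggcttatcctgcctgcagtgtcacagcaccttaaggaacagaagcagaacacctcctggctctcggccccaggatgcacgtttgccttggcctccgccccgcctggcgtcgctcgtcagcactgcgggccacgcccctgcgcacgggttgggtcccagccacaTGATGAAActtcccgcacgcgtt
The E-box was present in 6 of 24 MYC target promoters with an entry (25%), against 6.05% of all 27025 promoters and 8.76% of those of genes tested. TGATGNAA was present in 4 of 14 promoters of the amino acid genes (28.6%), against 3.53% and 2.01%. The matches began 232 bases before the start in Phb, 145 and 48 in Ldha, 80 in Hspd1, 66 and 47 in Slc7a11, 193 in Chac1 and 23 in Asns. A match describes the letters in this window and is no measured binding site.

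Both genes of the engineered genotype were higher in every VQ-D4 library than in every control. Myc was at 41.8, 57.9 and 29.4 CPM in the controls. It was at 1261 CPM in bone marrow, 1245 in liver, 1676 in spleen and 1309 in lymph node. No library overlapped between groups and the spleen was highest (log2 fold change 5.001, SE 0.257, adjusted p = 4.80e-07, edgeR's quasi-likelihood test with Benjamini-Hochberg adjustment, as for all p-values below). Nras was at 32.7, 31.3 and 32.8 CPM in the controls. VQ-D4 had 52.4 CPM in bone marrow, 50.99 in liver, 48.3 in spleen and 52.4 in lymph node. The increase in Nras was small and even over the sites (log2 fold change 0.66, SE 0.135, adjusted p = 0.00202). Not given in the sources used here was how reads of the transgene and of the mutant allele were counted, so neither value separates them from the resident gene.

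Of 11128 genes tested, edgeR called 5841 (52.5%) at an adjusted p under 0.05, of which 3020 were higher in VQ-D4 (27.1%) and 2821 lower (25.4%). The change was more than 2-fold in 1710 of the higher and 1872 of the lower genes. Libraries did not overlap between groups for 3198 genes on the higher side (28.7%) and 3040 on the lower (27.3%). Because so many genes differ, each gene group is read against these shares and against the median log2 fold change of all genes tested, 0.06. List counts given below for bone marrow alone come from a fit of the single VQ-D4 marrow library against the controls. In that fit fewer genes were called in each direction over all genes tested. A smaller list count there is thus no trait of the list by itself. Ribosomal protein, ATF4, MYC target and oxidative phosphorylation genes had the highest shares of higher genes, and homing, B cell receptor, MHC class II and interferon genes the highest shares of lower genes among the lists that are not markers of other cell types.

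**Figure D1:**
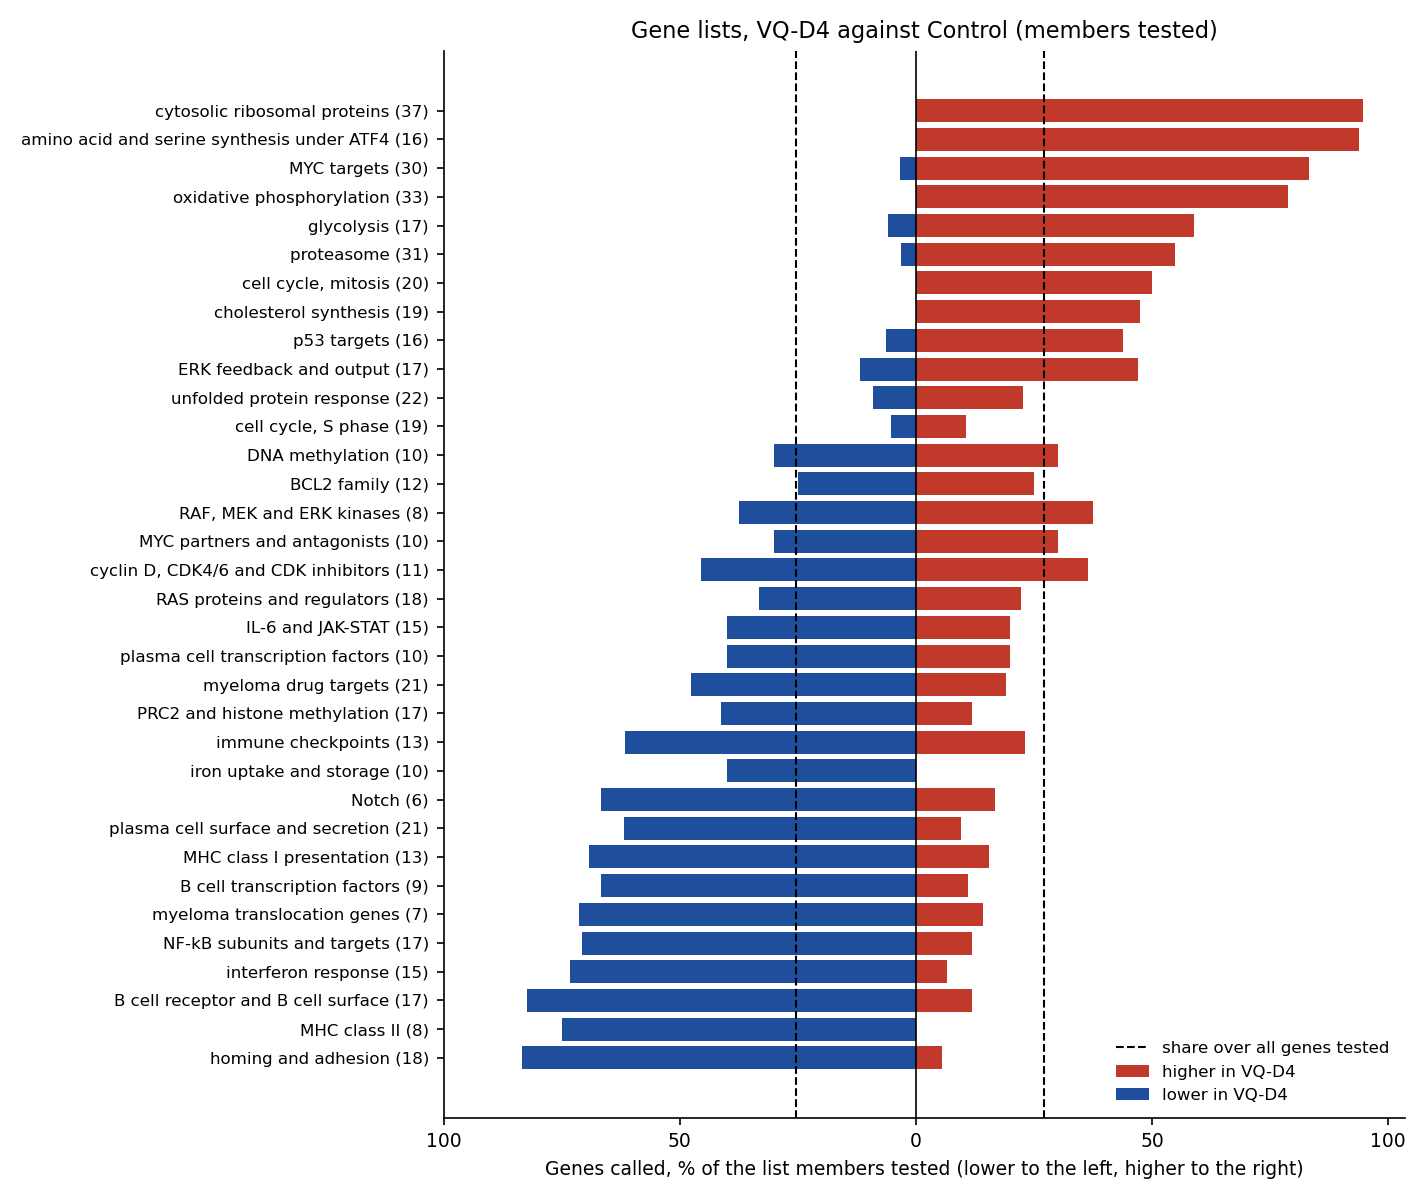
Share of the tested members of each gene list called higher (to the right) or lower (to the left) in VQ-D4 than in Control, in percent, with the number tested in brackets; dashed lines mark the shares over all genes tested, 27.1% higher and 25.4% lower. Cytosolic ribosomal proteins (35 of 37 higher) stand at the top and homing and adhesion genes (15 of 18 lower) at the bottom.

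The genes with the largest increases were silent or nearly so in control plasma cells. Ranking by fold change favours genes with few reads in the lower group. Trap1a on chromosome X (139333683 to 139338169), which encodes the tumour rejection antigen P1A, had no read in the 3 controls. It reached 730.4 CPM in bone marrow, 32.5 in liver, 319.7 in spleen and 452 in lymph node. The level was at least 1258-fold above the floor of 3 counts over the control group, but uneven over sites, with liver far below the others (adjusted p = 0.017). The call rested on few libraries: adjusted p was 0.0657 without the lymph node library, 0.0613 without control 2 and 0.0538 without the filter on low counts. Lin28b on chromosome 10 (45376617 to 45486314), an RNA-binding protein that blocks maturation of let-7 microRNAs, also had no control read. It was at 43.3 CPM in bone marrow, 69.4 in liver, 36.9 in spleen and 41.8 in lymph node, at least 157-fold higher (adjusted p = 5.70e-06). Spats2 on chromosome 15 (99125926 to 99213215) had 1 read in the controls and 131 to 189.7 CPM in VQ-D4. The ratio was 1491, its 95% interval from counting alone 267 to 58922 (adjusted p = 1.28e-07). These 3 genes were present in all 4 VQ-D4 libraries.

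The other 7 of the highest 10 had at most 1 read over the controls. Cntn3, a contactin adhesion molecule, had 1 control read and stood at 262 CPM in bone marrow, 23.6 in liver, 87.8 in spleen and 22.99 in lymph node (ratio 1229, interval 220.4 to 48568, adjusted p = 0.0074). Cdh19, a cadherin, had 1 control read and stood at 29.1 CPM in bone marrow, 327 in liver, 11.01 in spleen and 10.9 in lymph node (ratio 1151, interval 206 to 45481, adjusted p = 0.0342). In both genes 1 library held most of the signal. Without control 1 the adjusted p was 0.0833 for Cntn3 and 0.188 for Cdh19, without control 2 it was 0.055 and 0.138, and without control 3 that of Cdh19 was 0.127. Lphn3, a latrophilin receptor now named Adgrl3, had no control read and 0.958 to 28.1 CPM in VQ-D4, at least 47.7-fold higher (adjusted p = 0.00991). Without the filter on low counts the adjusted p was 0.0832 for Lphn3 and 0.0701 for Cdh19. The remaining members, each with no control read, were Strc, the inner ear protein stereocilin (at least 179-fold), Tmem200a (at least 82.7-fold), Atp6ap1l (at least 70.4-fold) and Car8, a carbonic anhydrase relative without enzyme activity (at least 41.1-fold). Whether reads of Strc are split or shared with any near copy in the genome was not examined.

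The 10 genes with the largest decreases were readily read in the controls and had few or no reads in VQ-D4, apart from Igj, which stayed above 10 CPM. The ranking by fold change favours such genes here too. Igj on chromosome 5 (88519809 to 88527897), now named Jchain, encodes the J chain that joins IgM and IgA into polymers. It was at 32862, 29901 and 57440.3 CPM in the controls. VQ-D4 had 39.9 CPM in bone marrow, 14.5 in liver, 45.3 in spleen and 15.6 in lymph node (log2 fold change −10.44, SE 0.582, adjusted p = 2.38e-06). Every VQ-D4 library was thus far below every control. Serpina3g, an intracellular protease inhibitor of a family with near copies, was at 151, 96.01 and 104 CPM in the controls and had no read in VQ-D4, at least 804-fold lower. Hdac9 on chromosome 12 (34047580 to 34917095), a class IIa histone deacetylase, was at 196, 163 and 283 CPM and had 1 read in the 4 VQ-D4 libraries (ratio 4545, interval 815 to 179586). Both genes were close to absent from VQ-D4.

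Blk, a Src-family kinase of B cells, was at 33.99, 53.8 and 53.8 CPM in controls and had no VQ-D4 read (at least 325-fold lower). Bcl11a, a zinc finger factor of lymphoid progenitors, was at 20.4, 57.9 and 13.1 CPM with no VQ-D4 read (at least 209.6-fold lower). Faim3, the IgM Fc receptor now named Fcmr, was at 85.5, 90.2 and 60.3 CPM with 1 VQ-D4 read (ratio 1593, interval 285 to 62983). The controls were uneven for Bcl11a, which was highest in control 2. Arap2, an Arf GTPase-activating protein, had 1 VQ-D4 read against 80.6 to 96.01 CPM (ratio 1825, interval 327 to 72182). Dnm3, a dynamin (at least 228-fold), Cyp4v3, a fatty acid hydroxylase (at least 209.8-fold), and Wls, the carrier that brings Wnt proteins to the surface (at least 195-fold), had no VQ-D4 read. The adjusted p of the 10 lowest genes lay at or below 0.000688.

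Of 4 genes that define plasma cells, Irf4 passed the test and Sdc1, Xbp1 and Prdm1 did not. Sdc1, which encodes the CD138 used for the sort, was at 926, 626 and 894 CPM in controls. It was at 1298 CPM in bone marrow, 766 in liver, 1071 in spleen and 978 in lymph node (adjusted p = 0.182). Xbp1, the driver of the secretory programme, was at 1744 to 2950.0 CPM in controls and 2392 to 3257 CPM in VQ-D4 (adjusted p = 0.329). Prdm1, the repressor of B cell genes, was at 340.1 to 599 CPM and 538 to 996 CPM (adjusted p = 0.245). In these 3 genes the groups overlapped. Irf4 was at 1617, 856 and 1282 CPM in controls. VQ-D4 had 2161 CPM in bone marrow, 2173 in liver, 2577 in spleen and 2048 in lymph node, above every control (log2 fold change 0.84, SE 0.203, adjusted p = 0.00546), but with bone marrow alone, which sets the single VQ-D4 marrow library against the 3 controls, the adjusted p was 0.135.

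Of 10 plasma cell transcription factors 2 were higher and 4 lower. Mef2b, a germinal centre factor, was the other higher one (28.03 ± 11.5 CPM to 114 ± 30.6 CPM, SD, n = 3 and 4, log2 fold change 2.03, SE 0.295, adjusted p = 0.000351). Ikzf3, the Aiolos factor degraded by lenalidomide, was at 446, 416 and 540.4 CPM in controls. It was at 57.7 CPM in bone marrow, 67.1 in liver, 59.3 in spleen and 27.8 in lymph node (log2 fold change −3.13, SE 0.259, adjusted p = 1.22e-05). Its relative Ikzf1 (Ikaros) fell from 415 ± 56.2 CPM to 253 ± 11.1 CPM (log2 fold change −0.71, adjusted p = 0.00074, and 0.0503 with bone marrow alone). Pou2f2, the OCT2 partner of immunoglobulin promoters, fell from 76.3 ± 2.83 CPM to 36.3 ± 12.2 CPM (log2 fold change −1.07).

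Most surface and secretion genes of plasma cells were lower. Of 22 listed, 21 were tested, and 13 were lower and 2 higher (median −0.68), with 8 of 22 lower with bone marrow alone. Mzb1, a chaperone for assembly of antibody chains, was at 583, 524 and 743 CPM in controls. It was at 0.755 CPM in bone marrow, 2.01 in liver, 10.04 in spleen and 32.6 in lymph node (log2 fold change −5.98, SE 1.09, adjusted p = 0.00414). The marrow and liver libraries had almost none, and the lymph node had the most. Cd38, an ectoenzyme and antibody target in myeloma, was at 21.4, 15.7 and 23.9 CPM with 2 reads in VQ-D4 (ratio 213, interval 58.2 to 1770.5). Tnfrsf17, the survival receptor BCMA, fell from 111 ± 30.00 CPM to 17.4 ± 8.23 CPM (log2 fold change −2.63), and Slamf7 from 753 ± 138 CPM to 351 ± 45.7 CPM (log2 fold change −1.10). All 3 surface genes stood below every control in every VQ-D4 library.

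The 2 genes of that list that rose were Fkbp11 and Slc3a2. Fkbp11, a secretory pathway prolyl isomerase, was at 57.6, 45.3 and 56.1 CPM in controls. It was at 704 CPM in bone marrow, 455 in liver, 591 in spleen and 778 in lymph node (log2 fold change 3.57, SE 0.212, adjusted p = 9.72e-07). Slc3a2, the heavy chain CD98 of amino acid transporters, rose from 1578 ± 417 CPM to 3536 ± 586 CPM (log2 fold change 1.16, adjusted p = 0.000807).

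**Figure D2:**
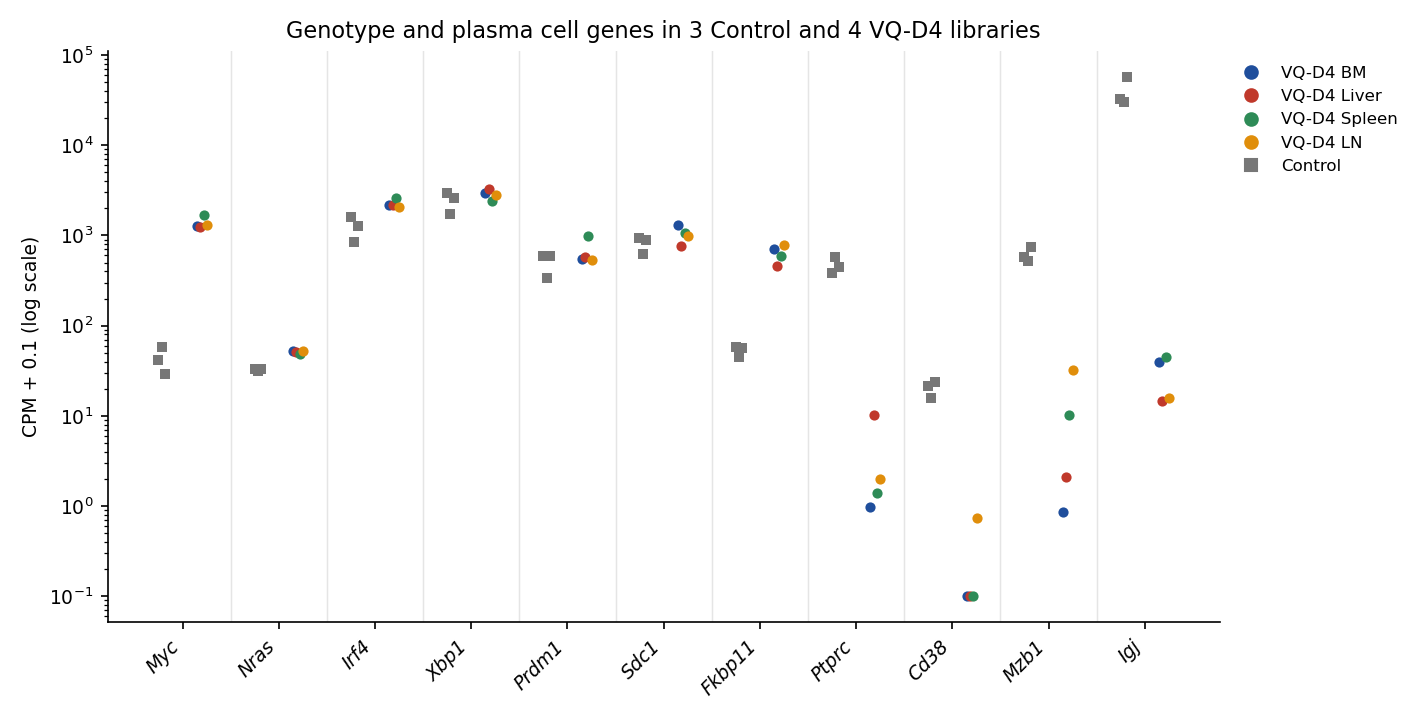
CPM plus 0.1 on a log scale in each of the 3 Control (grey squares) and 4 VQ-D4 libraries (circles, coloured by site) for the genotype genes and plasma cell genes; a read count of 0 is drawn at 0.1. Myc and Fkbp11 stand above all controls, Xbp1, Prdm1 and Sdc1 overlap, and Ptprc, Cd38, Mzb1 and Igj stand below all controls.

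Most B cell genes tested were lower in VQ-D4, to very different degrees. Of 19 B cell receptor and surface genes listed, 17 were tested, 14 were lower and 2 higher (median −2.20). Their summed level was 2751, 3362 and 3137 CPM in controls 1 to 3 and 1539 in bone marrow, 1323 in liver, 1529 in spleen and 1633 in lymph node. Cd79a, a signalling chain of the B cell receptor, was at 179.7, 201 and 355 CPM in controls and had 6 reads in VQ-D4 (log2 fold change −9.59, SE 0.431, adjusted p = 4.85e-07). Its partner chain Cd79b was at 182 to 241 CPM and 142 to 193 CPM (adjusted p = 0.138). The partner chains thus differed: 1 was near 0 while the other overlapped the controls. Ptprc, the pan-leukocyte phosphatase CD45, was at 384, 579 and 451 CPM in controls. VQ-D4 had 0.880 CPM in bone marrow, 10.04 in liver, 1.30 in spleen and 1.92 in lymph node, highest in liver (log2 fold change −6.92, SE 0.675, adjusted p = 9.56e-05).

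Of 9 B cell transcription factors tested, 6 were lower and 1 higher (Id3, an inhibitor of E proteins, 2.32 to 11.2 CPM in VQ-D4 against 0 to 1.30 CPM, log2 fold change 3.40). Ebf1, which opens the B lineage programme, had 3 VQ-D4 reads against 22.3, 46.3 and 31.2 CPM (ratio 227, interval 76.9 to 1105). Bach2, a repressor that holds off plasma cell fate, fell from 32.5 ± 27.6 CPM to 1.17 ± 1.49 CPM (log2 fold change −4.55). Pax5 and Spib were not tested and had no VQ-D4 read. In the controls Pax5 was at 6.80, 36.8 and 2.62 CPM. Pax5, Ebf1 and Bach2 were each highest in control 2, the library with the highest neutrophil and erythroid sums. The early B cell sum was highest in control 1. The part of early B cells in the B cell genes was not tested.

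Antigen presentation genes were lower as well. Of 8 MHC class II genes tested 6 were lower, and libraries did not overlap in 8 of 8 (median −1.87). H2-Ab1 was at 169, 286 and 208 CPM in controls and 0.319 to 2.92 CPM in VQ-D4 (log2 fold change −7.04, SE 0.345, adjusted p = 7.89e-07), and H2-Aa had 4 reads in VQ-D4 against 27.2, 120.2 and 51.4 CPM. Cd74, the invariant chain, was at 3935, 2771 and 3029 CPM in controls and 2691 CPM in bone marrow, 1477 in liver, 2730.0 in spleen and 1699.8 in lymph node (adjusted p = 0.057). It was called lower under 7 alternatives: DESeq2 (adjusted p = 0.00966), RLE scaling (0.0348), TMM factors of the 7 libraries (0.0452), the replicate block (0.0431), removal of abundant non-coding RNA (0.0471), and without the marrow (0.04) or the spleen library (0.0341) of VQ-D4. Of 13 class I genes 9 were lower and 2 higher. B2m, the light chain of every class I molecule, fell from 2694 ± 539 CPM to 1111 ± 254 CPM (log2 fold change −1.28). The immunoproteasome subunit Psmb9 fell from 59.2 ± 10.8 CPM to 14.9 ± 4.56 CPM (log2 fold change −2.02), and its companions Psmb8 and Psmb10 also fell. H2-D1 was higher in VQ-D4 (log2 fold change 0.72, adjusted p = 0.00907, and 0.143 with bone marrow alone), but H2 genes are near copies of each other and their counts are uncertain.

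MYC target genes rose together with Myc. Of 30, 25 were higher and 1 lower (median 1.34). Npm1, a nucleolar chaperone, was at 101, 104 and 103 CPM in controls. It was at 422 CPM in bone marrow, 410.0 in liver, 502 in spleen and 522 in lymph node (log2 fold change 2.18, SE 0.136, adjusted p = 1.26e-06). Nop58, a snoRNP protein that guides ribosomal RNA methylation, rose from 61.6 ± 8.91 CPM to 274 ± 27.5 CPM (log2 fold change 2.15). All VQ-D4 libraries were far above the controls in both.

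The 3 targets whose promoters are printed above were chosen from the higher ones with a match. Phb, a mitochondrial scaffold protein, was at 5.18, 8.17 and 7.61 CPM in controls. VQ-D4 had 25.03 CPM in bone marrow, 15.6 in liver, 25.3 in spleen and 29.1 in lymph node (log2 fold change 1.75). Ldha, the lactate dehydrogenase subunit, rose from 45.8 ± 12.3 CPM to 136 ± 16.1 CPM (log2 fold change 1.57), and Hspd1, the mitochondrial chaperonin, from 30.4 ± 5.57 CPM to 75.99 ± 9.69 CPM (log2 fold change 1.32). Srm, which makes spermidine, rose as well (log2 fold change 1.98). The single target that fell was Odc1, the first enzyme of polyamine synthesis, at 293, 115 and 128 CPM in controls and 73.6 CPM in bone marrow, 68.9 in liver, 92.3 in spleen and 99.3 in lymph node (log2 fold change −1.10, SE 0.313, adjusted p = 0.0158), with an adjusted p of 0.128 with bone marrow alone and 0.0555 without the filter on low counts. Control 1 was far above controls 2 and 3 for Odc1. Among MYC partners and antagonists, 3 of 10 were higher and 3 lower. Mnt, a MAX-binding repressor, rose from 57.2 ± 4.31 CPM to 132 ± 25.02 CPM, and Mxd1, a MYC antagonist, fell from 181 ± 87.2 CPM to 75.9 ± 11.2 CPM (adjusted p = 0.00481, and 0.172 with bone marrow alone).

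Cytosolic ribosomal protein genes were higher almost throughout: 35 of 37 tested were higher, none was lower, and libraries did not overlap in 36 (median 1.94). Summed over the list, the controls had 5024, 4981 and 5142 CPM. VQ-D4 had 20019 in bone marrow, 17084 in liver, 19937 in spleen and 22215 in lymph node. The sums were nearly equal among the controls and at least 3 times as high in every VQ-D4 library. Rpl8, a large subunit protein, was at 808, 768 and 806 CPM in controls and 4172 CPM in bone marrow, 3790.0 in liver, 4154 in spleen and 4717 in lymph node (log2 fold change 2.41, SE 0.142, adjusted p = 9.25e-07). Rps2, a small subunit protein, rose from 89.9 ± 8.24 CPM to 493 ± 48.9 CPM (log2 fold change 2.45). Ribosomal protein genes have many processed pseudogenes, and not given in the sources used here was how shared reads were counted. Per length, in the deposited TPM values, Rpl8 ranked second in VQ-D4 with 10304 ± 896 TPM (SD, n = 4). Controls had 2236 ± 52.9 TPM (SD, n = 3). The ranking left out predicted genes, sex-linked genes and small RNA names, among them Rn45s with 17.1 to 19.4% of VQ-D4 counts. Mt1, a metal-binding metallothionein, was seventh with 5526.9 ± 1824 TPM against 831 ± 227.

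Amino acid and serine synthesis genes under ATF4, the transcription factor of the integrated stress response, were higher in 15 of 16 and lower in none (median 1.85). Slc7a11, the cystine importer, was at 5.18, 7.49 and 2.89 CPM in controls. VQ-D4 had 140.1 CPM in bone marrow, 156 in liver, 143 in spleen and 103 in lymph node (log2 fold change 4.74, SE 0.283, adjusted p = 1.09e-06). Chac1, which degrades glutathione, was at 56.01, 25.2 and 29.6 CPM in controls and 202 CPM in bone marrow, 404 in liver, 436 in spleen and 218 in lymph node (log2 fold change 3.09, SE 0.399, adjusted p = 0.000248). Asns, asparagine synthetase, rose from 102 ± 22.9 CPM to 415 ± 40.98 CPM (log2 fold change 2.02). These are the 3 genes of the group whose promoters are printed above, and in each the lowest VQ-D4 library was above the highest control. Ddit4, an inhibitor of mTORC1, rose from 9.87 ± 3.11 CPM to 198 ± 57.04 CPM (log2 fold change 4.31). Psat1, of serine synthesis, rose from 28.5 ± 10.8 CPM to 196 ± 33.9 CPM (log2 fold change 2.79), and Sesn2, a leucine sensor, from 17.4 ± 4.65 CPM to 108 ± 16.4 CPM (log2 fold change 2.63). Atf4 itself was higher by a smaller amount (log2 fold change 0.87, adjusted p = 0.000438).

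The unfolded protein response, which adapts the endoplasmic reticulum to secretory load, had few calls. Of 22 unfolded protein response genes 5 were higher and 2 lower (median 0.21), below the shares of all genes. Hspa5, the main chaperone of the reticulum, was at 2301 to 2771 CPM in controls and 2549.5 to 3095 CPM in VQ-D4 (adjusted p = 0.328). Ddit3, the factor CHOP, was at 39.8 to 52.8 CPM and 25.3 to 55.8 CPM (adjusted p = 0.459), but was called lower with bone marrow alone (log2 fold change −0.85, adjusted p = 0.0453). Dnajb9, a cochaperone induced by XBP1, fell from 254 ± 46.8 CPM to 104 ± 10.7 CPM (log2 fold change −1.29), and Pdia6, a disulfide isomerase, rose from 624 ± 108 CPM to 1264 ± 129 CPM (log2 fold change 1.02).

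Feedback genes of the RAS and ERK cascade were higher in 8 of 17 tested and lower in 2 (median 1.24). Spry4, a Sprouty inhibitor of RAS activation, was at 0, 1.36 and 0.525 CPM in controls. VQ-D4 had 29.4 CPM in bone marrow, 20.6 in liver, 31.7 in spleen and 15.3 in lymph node (log2 fold change 5.25, SE 0.567, adjusted p = 3.65e-05). Etv4, an ETS factor induced by ERK, had 3 control reads and 12.8 to 16.1 CPM in VQ-D4 (ratio 48.5, interval 16.4 to 236). Spry4 and Etv4 thus went from close to 0 to a level seen at every site. Phlda1 rose from 15.3 ± 8.69 CPM to 351 ± 96.9 CPM (log2 fold change 4.54), Spred1, another RAS inhibitor, by 3.09 and Etv5 by 2.74 on the log2 scale.

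Other ERK output genes went the opposite way or did not pass. Egr3 was at 99.4, 31.7 and 14.2 CPM in controls and 0.324 to 1.28 CPM in VQ-D4 (log2 fold change −6.29, SE 0.796, adjusted p = 0.00022), and Egr2 fell likewise (log2 fold change −4.31). Both were highest in control 1, the library with the highest stress sum. Egr1 was at 980.0, 258 and 331 CPM in controls and 394 CPM in bone marrow, 1339 in liver, 1541 in spleen and 820.4 in lymph node (adjusted p = 0.215). Without control 1 it was called higher (log2 fold change 1.80, adjusted p = 0.0264). The ERK phosphatase Dusp6 was at 15.2 to 37.8 CPM and 2.78 to 22.03 CPM (adjusted p = 0.223). Upstream, 4 of 18 RAS proteins and regulators were higher and 6 lower. Rasgrp3, a RAS exchange factor of B cells, was at 206, 159 and 172 CPM in controls and 0.464 to 3.19 CPM in VQ-D4 (log2 fold change −6.99, SE 0.358, adjusted p = 9.25e-07), while Dab2ip, a RAS GTPase-activating protein, rose from 10.8 ± 5.09 CPM to 70.2 ± 10.4 CPM (log2 fold change 2.72). Of 8 RAF, MEK and ERK kinases 3 were higher and 3 lower. Map2k1, which encodes MEK1, fell from 86.4 ± 2.90 CPM to 33.7 ± 3.86 CPM (log2 fold change −1.35), and Ksr1, a scaffold of the cascade, from 7.14 ± 2.38 CPM to 0.284 ± 0.209 CPM (log2 fold change −4.32).

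**Figure D3:**
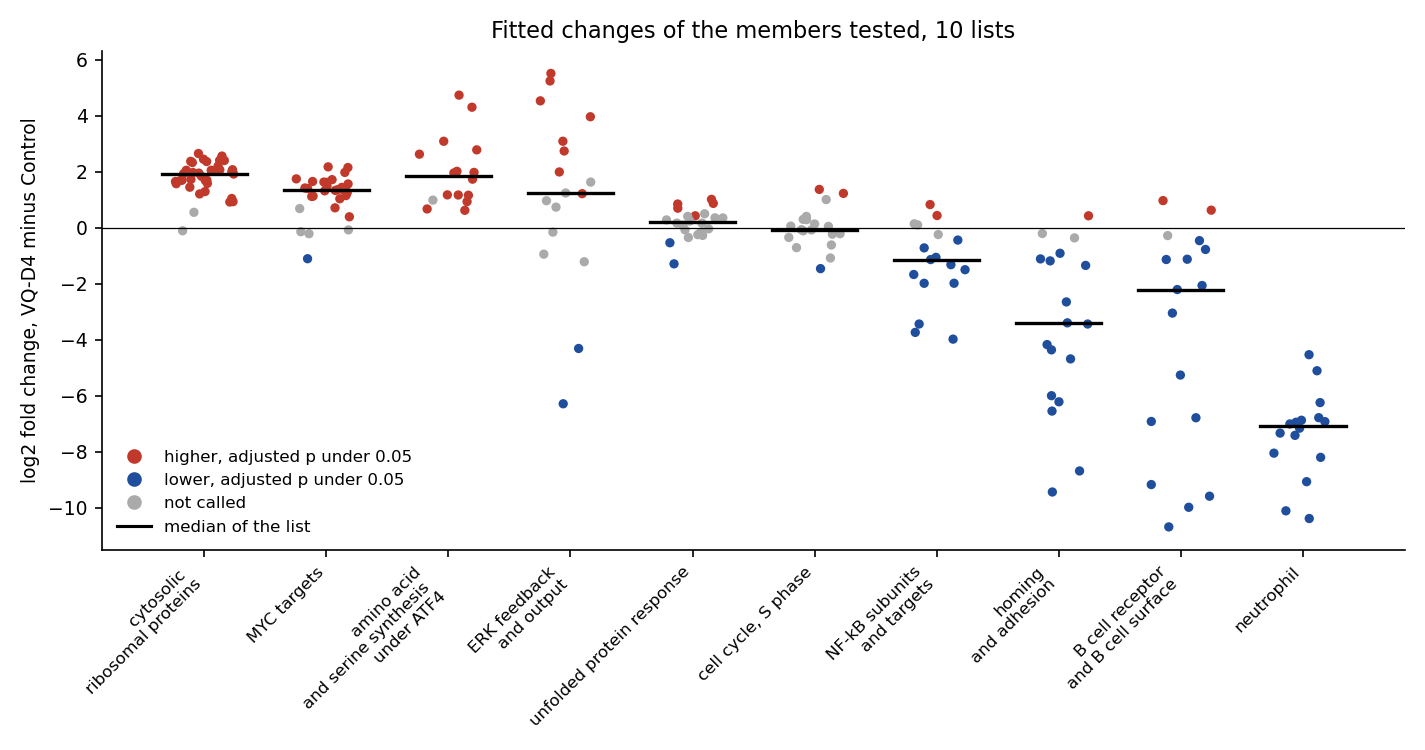
Fitted log2 fold change (VQ-D4 minus Control) of every tested member of 10 gene lists, coloured by whether the adjusted p was under 0.05, with a bar at the median of each list. Ribosomal proteins lie almost wholly above 0, unfolded protein response and S phase genes lie around 0, and all 16 neutrophil genes lie below 0.

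Energy and degradation genes were moderately higher. Of 33 oxidative phosphorylation genes 26 were higher and none lower (median 0.93), among them Cox6c of complex IV, from 70.8 ± 9.46 CPM to 221 ± 45.5 CPM, and Atp5g1 of the ATP synthase, from 5.97 ± 1.03 CPM to 21.8 ± 3.18 CPM. Of 17 glycolysis genes 10 were higher and 1 lower, with 6 of 18 higher with bone marrow alone. Slc2a1, the glucose transporter GLUT1, was at 27.5, 23.8 and 23.1 CPM in controls and 59.4 CPM in bone marrow, 125 in liver, 59.3 in spleen and 53.3 in lymph node (log2 fold change 1.59, SE 0.313, adjusted p = 0.00212), so liver was about 2-fold above the other sites. Of 31 proteasome genes 17 were higher and 1 lower, with a small median of 0.47 and 9 higher with bone marrow alone. Psmb5, the subunit that bortezomib binds, rose from 16.3 ± 1.43 CPM to 35.4 ± 6.69 CPM (log2 fold change 1.11). Of 19 cholesterol synthesis genes 9 were higher and none lower, 5 higher with bone marrow alone. Sqle, squalene epoxidase, was at 14.9, 8.85 and 13.1 CPM in controls and 111 CPM in bone marrow, 120.4 in liver, 89.1 in spleen and 81.1 in lymph node (log2 fold change 3.03, SE 0.223, adjusted p = 3.16e-06).

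Cell cycle genes gave no stable count. Of 20 mitosis genes 10 were higher and none lower, but only 1 with bone marrow alone, 6 without the spleen library of VQ-D4, control 1 or control 3, and 19 without control 2. Mki67, a proliferation marker, was at 777, 1334 and 747 CPM in controls and 1126 CPM in bone marrow, 1384 in liver, 1646 in spleen and 1504 in lymph node (adjusted p = 0.051). Control 2 was the highest control and fell within the VQ-D4 range. Mki67 was called higher without control 2 (log2 fold change 0.89, adjusted p = 0.00153) or the VQ-D4 marrow library (0.67, 0.039). It was also called higher with all libraries kept, without the filter on low counts (0.57, 0.0424) and with all 23 libraries and a group term only (0.57, 0.0106). Of 19 S phase genes 2 were higher (Gins1 and Gins2) and 1 lower (Slbp, log2 fold change −1.46), below the shares of all genes. The calls of Gins1 and Gins2, of the replicative helicase, ended without control 3 (adjusted p = 0.0754 and 0.112) and without the spleen library (0.0546 and 0.0731). That of Gins1 also ended without the lymph node library (0.0591), and that of Gins2 without control 1 (0.0576) or the liver library (0.0613). Both ended with the replicate block (0.108 and 0.0662) and with bone marrow alone (0.268 and 0.513), where no S phase gene was higher.

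Among D cyclins and their kinases the pattern changed from gene to gene. Ccnd2 was at 1059, 186 and 139 CPM in controls, with control 1 far above the others. VQ-D4 had 2786 CPM in bone marrow, 2111 in liver, 2530.2 in spleen and 2327 in lymph node (log2 fold change 2.40, SE 0.729, adjusted p = 0.0277), and the adjusted p was 0.106 without control 2, 0.0865 with bone marrow alone and 0.0832 without the filter on low counts. Ccnd3 fell from 78.97 ± 29.2 CPM to 16.8 ± 4.41 CPM (log2 fold change −2.22). Cdk6, a kinase partner of both, had 1 VQ-D4 read against 26.2, 24.5 and 14.4 CPM (ratio 436, interval 77.5 to 17319.5). Cdkn1a, the inhibitor p21, rose from 3.72 ± 2.13 CPM to 27.3 ± 9.72 CPM (log2 fold change 2.89). It is also a p53 target, and of 16 p53 targets 7 were higher and 1 lower, with 4 higher with bone marrow alone. Plk3 rose from 14.6 ± 12.1 CPM to 157 ± 46.7 CPM (log2 fold change 3.45) and Zmat3, an RNA-binding p53 target, from 25.02 ± 5.27 CPM to 86.3 ± 10.3 CPM (log2 fold change 1.79).

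Bcl2 and Bcl2l1, 2 anti-apoptotic genes of the BCL2 family, moved in opposite directions. Bcl2, the target of venetoclax, was at 158, 128 and 169 CPM in controls. VQ-D4 had 7.04 CPM in bone marrow, 2.32 in liver, 8.75 in spleen and 0.639 in lymph node (log2 fold change −4.99, SE 0.478, adjusted p = 4.74e-05). Bcl2l1, which encodes BCL-XL, rose from 26.4 ± 6.60 CPM to 52.2 ± 7.86 CPM (log2 fold change 0.99), with an adjusted p of 0.0544 with bone marrow alone. Of 12 family genes tested 3 were higher and 3 lower (25% each), near the shares of all genes, 27.1% and 25.4%. The BH3-only genes Bmf and Bbc3 were higher (log2 fold change 1.01 and 1.01, with 0.146 for the adjusted p of Bbc3 with bone marrow alone) and Bid was lower (−1.63).

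Genes of inflammatory and cytokine signalling were lower. Of 17 NF-kB subunits and targets 12 were lower and 2 higher (median −1.13). Nfkb2, the non-canonical subunit, was at 123, 147 and 165 CPM in controls and 9.81 CPM in bone marrow, 14.4 in liver, 21.4 in spleen and 8.94 in lymph node (log2 fold change −3.44, SE 0.265, adjusted p = 6.09e-06). Tnfaip3, the feedback inhibitor A20, fell from 127 ± 23.7 CPM to 9.79 ± 8.05 CPM (log2 fold change −3.74) and Nfkbie from 67.5 ± 4.50 CPM to 4.50 ± 1.99 CPM (−3.98). Of 25 interferon response genes 15 were tested, 11 lower and 1 higher (median −1.12).

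Within IL-6 and JAK-STAT signalling 6 of 15 were lower and 3 higher, against 9 and 1 with bone marrow alone. Jak1, the kinase shared by IL-6 and interferon receptors, was at 169.6, 268 and 229 CPM in controls. VQ-D4 had 19.6 CPM in bone marrow, 9.12 in liver, 11.99 in spleen and 11.5 in lymph node (log2 fold change −4.06, SE 0.265, adjusted p = 3.00e-06). The loss was seen at every site. The IL-6 signalling chain Il6st was higher in VQ-D4 (179 ± 45.03 CPM to 312 ± 14.2 CPM, log2 fold change 0.80, adjusted p = 0.00218, and 0.0829 with bone marrow alone), and Stat3 was at 174 to 193 CPM and 112 to 179.8 CPM (adjusted p = 0.291). Stat3 was called lower with bone marrow alone (log2 fold change −0.71, adjusted p = 0.029) and with all 23 libraries and terms for group and tissue (−0.45, 0.00469). The kinase genes Pim1 and Pim2, induced by STATs, fell (log2 fold change −2.51 and −3.11), as did Socs2 (−4.52).

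Homing and adhesion genes had the largest share of lower genes among the lists that are not markers of other cell types: 15 of 18 tested were lower and 1 higher (median −3.42). Ccr1, a chemokine receptor, had no VQ-D4 read against 6.80, 21.4 and 7.35 CPM (at least 81.6-fold lower). Ccr1 is also found on myeloid cells and was highest in control 2. Itgb7, an integrin chain for gut homing, was even over the controls (93.6, 119.8 and 119 CPM) and lower in VQ-D4 (6.48 to 12.4 CPM, log2 fold change −3.39, SE 0.207, adjusted p = 1.10e-06). Itga4, its partner chain, fell from 546 ± 62.6 CPM to 253 ± 27.2 CPM (log2 fold change −1.11). Cxcr4, which holds plasma cells in marrow, was at 94.4 to 128 CPM and 68.3 to 117 CPM (adjusted p = 0.429).

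Of 13 immune checkpoint genes 8 were lower and 3 higher. Btla had 2 VQ-D4 reads against 68.96, 106 and 121 CPM (ratio 1032, interval 285 to 8536), and Cd200, a ligand that restrains myeloid cells, had 1 against 14.6, 19.1 and 34.6 CPM (ratio 489, interval 86.9 to 19391). Cd276, the ligand B7-H3, was at 0.324, 1.02 and 0 CPM in controls and 13.96 CPM in bone marrow, 12.7 in liver, 11.7 in spleen and 14.7 in lymph node (log2 fold change 4.91, SE 0.582, adjusted p = 6.30e-05). Btla and Cd200 were thus near absent in VQ-D4, and Cd276 in the controls. Ctla4 and Lag3, checkpoint receptors, also fell (log2 fold change −6.44 and −5.83). Pvrl2, the nectin now named Nectin2, rose from 1.52 ± 0.137 CPM to 16.2 ± 5.10 CPM (log2 fold change 3.37).

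Of 17 genes of PRC2 and histone methylation 7 were lower and 2 higher, with 4 lower with bone marrow alone. Ezh2, the methyltransferase of PRC2, was at 39.8, 60.6 and 40.7 CPM in controls. VQ-D4 had 0.503 CPM in bone marrow, 0 in liver, 1.30 in spleen and 0 in lymph node (log2 fold change −6.80, SE 0.547, adjusted p = 8.28e-06). At 2 sites Ezh2 had no read at all. The H3K27 demethylase Kdm6a fell from 71.9 ± 23.9 CPM to 23.6 ± 2.58 CPM (log2 fold change −1.61). Of 7 myeloma translocation genes tested 5 were lower and 1 was higher, Ccnd2, described above. The summed level of the list was higher in VQ-D4, at 2542 ± 296 CPM against 778 ± 475 CPM in controls (SD). Maf, which some translocations place beside the immunoglobulin locus, had 1 VQ-D4 read against 11.01, 10.2 and 5.77 CPM (ratio 180.4, interval 31.5 to 7209). Of 21 myeloma drug targets 10 were lower, among them Ikzf3, Cd38, Slamf7, Tnfrsf17, Bcl2 and Map2k1 described above, and 4 were higher, among them Psmb5. Within the Notch list 4 of 6 were lower and 1 higher, Hes1, which rose from 2.82 ± 1.78 CPM to 19.4 ± 8.73 CPM (log2 fold change 2.78). Of 10 iron uptake and storage genes 4 were lower and none higher. The call of Ftl1 among them ended with the replicate block (adjusted p = 0.0738) and without control 3 (0.106). Of 10 DNA methylation genes 3 were higher and 3 lower (30% each), near the shares of all genes, 27.1% and 25.4%. Among the higher, the call of Tdg ended with DESeq2 (adjusted p = 0.0558) and with RLE scaling (0.0598). Among the lower, that of Dnmt3a ended without control 3 (0.0874).

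The other VQ lines were set against the same 4 VQ-D4 libraries. Over 12211 genes tested, 47.5% differed between VQ-D4 and VQ-D1, 64.4% from VQ-D2 and 65.9% from VQ-D5. Against each of the 3 lines in the same direction, edgeR called 1338 of 12211 genes higher in VQ-D4 (11%) and 1351 lower (11.1%). VQ-D4 stood above each other line in 10 of 16 ATF4 genes and 19 of 38 ribosomal protein genes, and below each in 14 of 19 S phase genes and 15 of 30 MYC targets. Slc7a11 was at 22.04 ± 6.61 in VQ-D1, 1.22 ± 1.93 in VQ-D2 and 11.7 ± 7.43 in VQ-D5 (SD, n = 4 each, smallest log2 difference 2.64, largest adjusted p = 0.000323). Chac1 was at 32.1 ± 17.9 in VQ-D1, 7.56 ± 5.998 in VQ-D2 and 2.65 ± 1.42 in VQ-D5, with a smallest difference of 3.34. Both genes were thus highest in VQ-D4 among the VQ lines. Rpl8 was at 2079 ± 116 in VQ-D1, 1599 ± 116 in VQ-D2 and 2219 ± 81.3 in VQ-D5, below all VQ-D4 libraries. Mcm4, of the replicative helicase, was at 50.9 ± 16.7 CPM in VQ-D4 against 129.5 ± 16.5 in VQ-D1, 144 ± 11.9 in VQ-D2 and 192 ± 24.2 in VQ-D5. Spry4, far above control in VQ-D4, was lower than in each other VQ line (67.9 ± 18.1 in VQ-D1, 177 ± 35.7 in VQ-D2 and 192 ± 37.5 in VQ-D5). Jak1 was at 106 ± 4.28 in VQ-D1, 200.3 ± 25.2 in VQ-D2 and 200.5 ± 19.5 in VQ-D5, all far above its level in VQ-D4. The means of VQ-D2 and VQ-D5 lay within the control range (169.6, 268 and 229 CPM), but that of VQ-D1 was below every control.

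The genes furthest above the other lines were Trap1a, Xlr4a, Nr2f2, Cntn3, Slc25a21, Fam84b, Fmr1nb and Klf4. Trap1a was at 0.293, 0.122 and 0 CPM in VQ-D1, VQ-D2 and VQ-D5, with 10 reads over the 12 libraries. Nr2f2, the nuclear receptor COUP-TFII, was at 15.6 to 77.9 CPM in VQ-D4 and at most 0.289 in any other VQ library (smallest log2 difference 8.77). Xlr4a, of a repeated X-linked lymphocyte family with near copies, had no read in the 12 other libraries and 8.94 to 21.2 CPM in VQ-D4, at least 364-fold higher. Fmr1nb, a testis antigen gene, was at 21.2 ± 13.4 CPM, with 3 reads in the other VQ lines, but at 227 ± 38.96 CPM in the line t-VK12653, which carries Vκ*MYC without the Nras allele. Klf4, a zinc finger factor, was near 0 in the other lines yet at 56.8 ± 40.2 CPM in controls, against 39.6 ± 40.3 in VQ-D4 (adjusted p = 0.62).

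The genes furthest below the other lines were Atp10a, Enpp3, Evc2, Sis, Cd93, Reln, Elmo1 and Cacng6. Enpp3, Sis and Cacng6 were near absent in the controls too (means 0.551, 0.0874 and 0.262 CPM) and were not tested against them. For these genes the other VQ lines stood above both VQ-D4 and the controls. Atp10a, Evc2, Cd93, Reln and Elmo1 were called lower in VQ-D4 than in the controls. Cd93, a receptor that long-lived plasma cells need in marrow, was at 248, 252 and 327 CPM in controls and 0 to 0.773 CPM in VQ-D4, with 169 ± 42.2 in VQ-D1, 57.5 ± 12.8 in VQ-D2 and 235 ± 55.00 in VQ-D5. Reln, the secreted glycoprotein reelin, was at 184, 211 and 377 CPM in controls, 0.648 to 3.51 CPM in VQ-D4 and 308 ± 61.7 in VQ-D1, 809 ± 115 in VQ-D2 and 918 ± 216 in VQ-D5. Both genes were thus far lower in VQ-D4 than in the controls and the other VQ lines, although Cd93 in VQ-D1 and VQ-D2 was also below the control mean. In t-VK12653 (means of 4 libraries) most of the 8 genes were also low: Cd93 was at 0.0537, Enpp3 at 0.0537, Atp10a at 0.0847, Cacng6 at 0.0847, Evc2 at 0.161 and Reln at 6.27 CPM, while Elmo1 was at 28.8 and Sis at 297 CPM. Low levels of the first 6 were therefore shared with t-VK12653 and were not particular to VQ-D4. Atp10a, a lipid flippase, had 1 read in VQ-D4 against 35.3 to 63.3 CPM in the others, and Elmo1, a regulator of Rac, had 7 reads against 36.5 to 198 CPM. Sis, the intestinal enzyme sucrase-isomaltase, had no read in VQ-D4 and 72.5 ± 19.4 CPM in VQ-D1. The lines were not sampled at the same sites, and each line is a single donor.

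**Figure D4:**
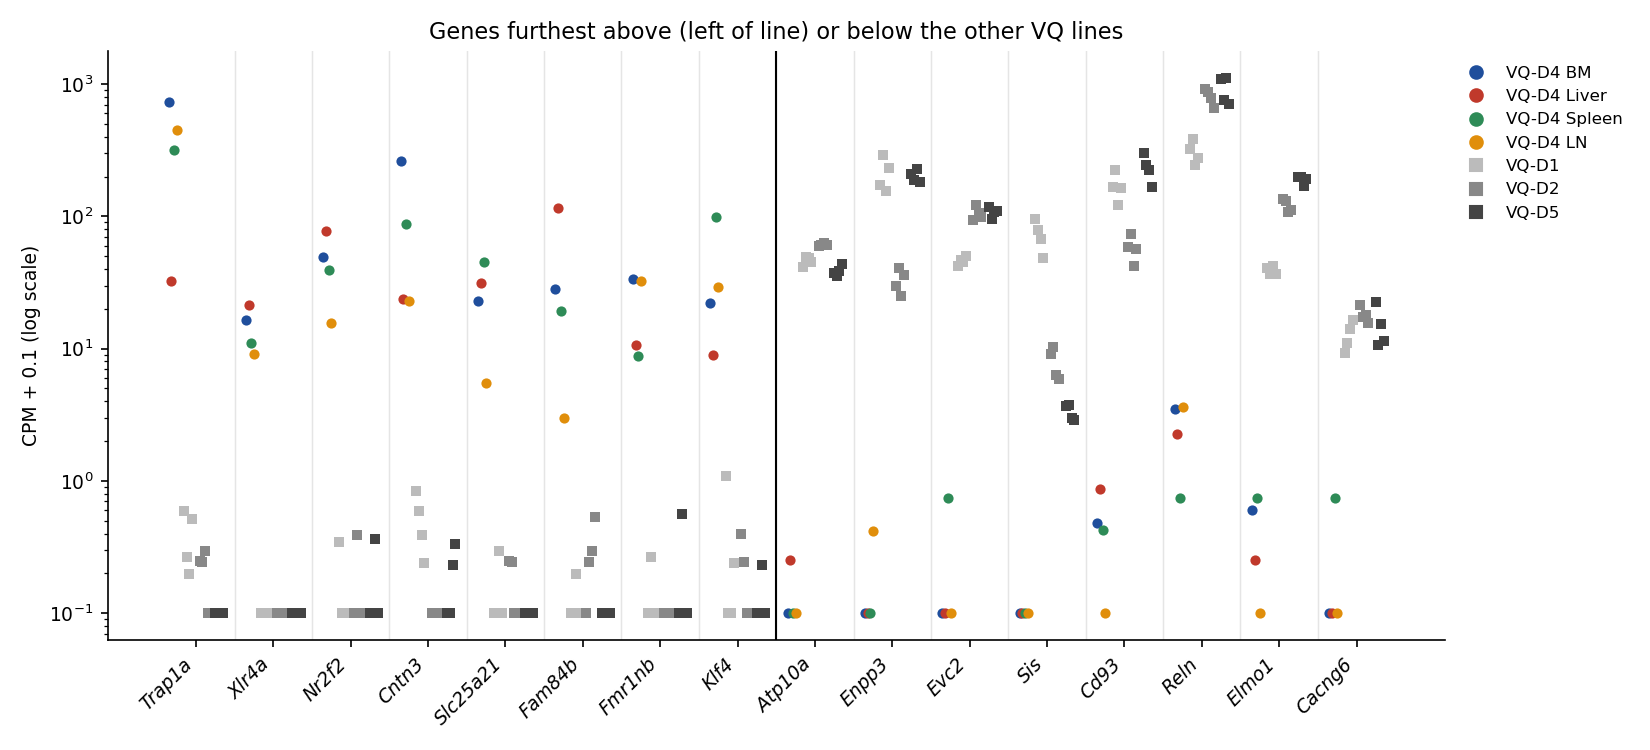
CPM plus 0.1 on a log scale in the 4 VQ-D4 libraries (circles, coloured by site) and the 12 libraries of VQ-D1, VQ-D2 and VQ-D5 (grey squares) for the 8 genes furthest above and the 8 furthest below the other VQ lines; 0 reads are drawn at 0.1. That no VQ-D4 library overlaps another VQ library in any of the 16 genes was fixed by the rule that chose them.

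Between sites there was 1 library each and no test. In 8235 genes the mean over the 4 VQ-D4 libraries was at least 10 CPM. Of these, liver was over 2-fold above the mean of the other sites in 132 and over 2-fold below in 151. The counts were 47 and 37 for bone marrow, 84 and 65 for spleen, and 50 and 105 for lymph node. Cdh5, an endothelial cadherin, was at 0.755 CPM in bone marrow, 733 in liver, 0.324 in spleen and 0 in lymph node, with 7.15 to 8.42 CPM in controls. Dll4, a Notch ligand that endothelial cells also express, was likewise highest in liver: 2.39 CPM in bone marrow, 288 in liver, 5.51 in spleen and 0 in lymph node. Of the other endothelial markers in liver, Kdr was at 0.154, Stab2 at 1.70, Lyve1 at 0.154 and Pecam1 at 9.43 CPM, none above its level in every other library. The part of endothelial cells in these values was not tested. Without the liver library Cdh5 was lower in VQ-D4 than in controls (log2 fold change −3.97, adjusted p = 0.000472). Cntn5, another contactin, was at 172 CPM in liver and at most 2.01 elsewhere. Alb, the hepatocyte product albumin, was at 27.8 CPM in liver and had no read in the other 6 libraries.

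The other sites also had genes that were uneven. Eras, a RAS-like gene of embryonic stem cells, was at 21.7 CPM in lymph node and at most 0.464 elsewhere in VQ-D4. Klf2, a factor of lymphocyte trafficking, was at 11.8 CPM in bone marrow, 6.64 in liver, 213 in spleen and 31.3 in lymph node, with 421, 189 and 171 CPM in controls. Spleen alone stood within the control range for Klf2, and without it Klf2 was called lower (log2 fold change −4.07, adjusted p = 0.0011). Fosb, an immediate early gene, was at 614 CPM in spleen and 27.4 to 147 elsewhere, and the spleen library also had the highest stress sum of VQ-D4. Ngp, a neutrophil granule gene, was at 22.5 CPM in bone marrow and at most 1.39 elsewhere, with 849 to 2062 CPM in controls.

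**Figure D5:**
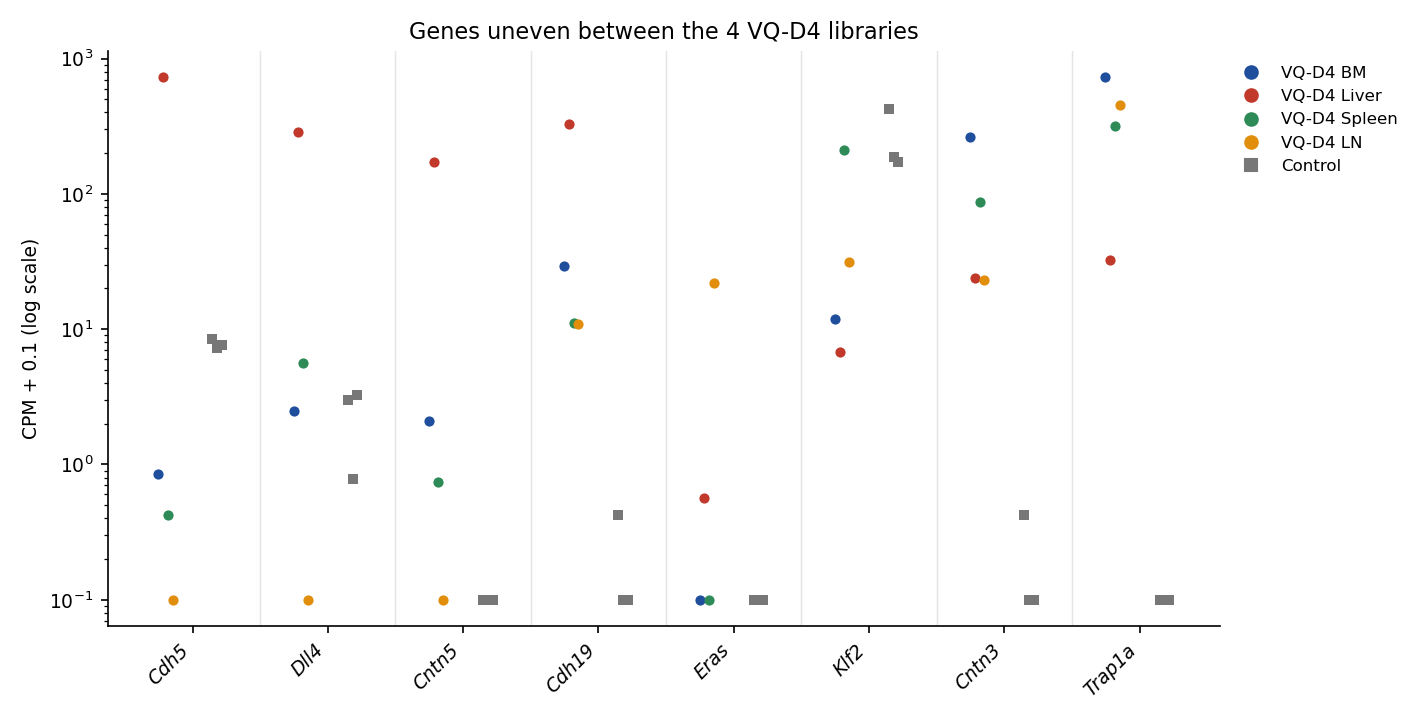
CPM plus 0.1 on a log scale of 8 genes that were uneven over the 4 VQ-D4 libraries (circles, coloured by site), with the 3 Control libraries as grey squares; 0 reads are drawn at 0.1. Cdh5, Dll4, Cntn5 and Cdh19 are highest in liver, Eras in lymph node, Klf2 in spleen, and Cntn3 and Trap1a in bone marrow.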

How the data were processed

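Total RNA libraries made with a stranded kit for low inputs, per the labels' protocols, were read from the deposited tables of 24063 gene symbols. Per the file headers, each table gives a count, an FPKM and a TPM value. The counts are whole, unnormalized read counts deposited by the authors. The FPKM values, scaled by the authors to length and depth, were not used, and the deposited TPM values were used only to rank levels between genes. The submitters' processing notes name STAR, featureCounts, DESeq2 and the builds GRCm38 and mm10. Not given in the sources used here were the annotation, the strand setting and tool versions.

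Counts were analysed with edgeR 4.0.16 (limma 3.58.1, R 4.3.3), and DESeq2 1.42.0 served as an alternative. Groups were compared by quasi-likelihood F-tests with robust dispersions on the 7 libraries with a group term, TMM factors from all 23 libraries, filterByExpr (minimum count 10, minimum total 15) and Benjamini-Hochberg adjustment, with calls at an adjusted p under 0.05. The other VQ lines were fitted in the same way on 16 libraries, and a gene was called when it passed in the same direction against each of 3 lines. The scripts were tested on simulated data. Libraries within a group differed by more than sampling noise (chi-square over its degrees of freedom 6.34 to 22.3), so all were kept as separate. Where a group had no read, the fold is against a floor of 3 counts over the group (0.305 CPM in Control, 0.145 in VQ-D4), and with 1 to 3 reads a ratio has a 95% counting interval. Both cover counting error only: without molecular identifiers, reads are not independent molecules.

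The genes named are Myc and Nras, the 10 highest and 10 lowest fold changes among called, non-overlapping genes with at least 10 CPM in the higher group, up to 4 called members of each list, list members named for their role (chosen after their values were seen), and the 8 genes per direction furthest from the other VQ lines. Members of the lists of other cell types were left out of the 20. The 8 per direction came from genes called against each other VQ line. They also had at least 10 CPM in the higher side and no overlap with any library of those lines. Site genes are the 5 with the largest log2 ratio of a site over the mean of the others. The members and lists were chosen with earlier results of these data known. Gene positions and promoters come from RefSeq (GRCm38.p6). Alternatives were scaling (RLE, TMM of the 7 libraries), DESeq2, no filter, removal of abundant non-coding RNA, bone marrow alone, all 23 libraries, the replicate number as a block, a test against a log2 fold change of 1, and each library left out. Some genes that the rule would name are not reported here.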

Additional observations from a re-analysis of the deposited data

Results flagged for a closer look

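In 7 of 66 values checked over the 4 VQ-D4 libraries, named genes and list sums, the highest library stood apart from the others by Dixon's test; chance alone gives about 1 in 20. Genes with 3 reads or fewer in each VQ-D4 library were not checked. Myc stood apart in spleen at 1676 CPM, and Cdh19 in liver at 327 CPM. The summed amino acid and serine synthesis genes under ATF4 were highest in lymph node at 7484 CPM, against 6819 to 6862 at the other sites. The Notch list stood apart in liver at 488 CPM, where Dll4 held 288 CPM. Neutrophil genes stood apart in bone marrow at 75.5 CPM, still far below the controls. Hepatocyte genes stood apart in liver at 57.5 CPM, where Alb held 27.8 CPM. Endothelial and stromal genes stood apart in liver at 749.8 CPM, of which Cdh5 made up 733.

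Of the 20 genes furthest from control, 5 also differed from each other VQ line by a test of the difference itself, where 11% of all genes tested were higher and 11.1% lower than in each other line, so the count is near that background. The smallest log2 difference from another VQ line was 10.45 for Trap1a, 8.03 for Cntn3, 0.47 for Spats2, −4.54 for Igj and −3.44 for Arap2.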

How the results depend on the processing

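With bone marrow alone (1 VQ-D4 library) 1869 genes were higher and 2081 lower, and when the test was against a log2 fold change of 1, 912 and 1265, where Nras (0.66) had an adjusted p of 0.999999. RLE scaling gave 2718 and 3114 calls, DESeq2 2693 and 3105, no filter 3076 and 3568, TMM factors from the 7 libraries (chosen after seeing the data) 2798 and 3036, all 23 libraries with group and tissue 3539 and 3453, and leaving out 1 library at least 2547 and 2498. RLE moved the median of all genes by −0.08 and the share of calls that were higher from 51.7% to 46.6%. Myc kept its direction and call in all of these. Over 180 genes checked against Control, 2913 of 3051 values kept direction and side of the threshold, 114 no longer passed, 20 newly passed and 4 turned. Egr1 turned to −0.41 with bone marrow alone, and Cdh5 to −3.31 there and −3.51 with group and tissue terms; without 1 library Cdh5 ranged from −3.97 (liver left out) to 4.995. Same-numbered libraries did not pair (correlations of their deviations 0.0577, −0.0478 and −0.0637); with the replicate block 2577 genes were higher and 2403 lower, and against the other lines 1302 and 1311. The causes of these shifts were not tested. The 16 genes named against the other VQ lines kept direction and call in 352 of 352 values. They were chosen from the same libraries as the called, non-overlapping genes with the largest differences. Their stability was therefore largely set by the choice. Limits: VQ-D4 is 1 donor and 2 recipients, the controls differ in site, and their depth (median 3023575 counts) bounds a silent gene only at 0.305 CPM.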
